A study of Mus musculus with 5 samples.

Results

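Myeloid C-type lectin receptors were examined in the brain of GL261-bearing mice treated with ultrasound-mediated blood-brain barrier opening (UMBO) or with vehicle. The 8 genes, Clec7a, Clec4n, Clec4d, Clec4e, Clec5a, Clec12a, Clec4a2 and Clec10a, were taken by name and matched by mouse symbol to the Ensembl identifiers of the count tables, which hold 55573 genes. All 8 were found. GL261 is a mouse glioma line, here carrying a luciferase/mKate2 vector, and it was placed in the right caudate nucleus-putamen of C57BL/6 females aged 7 to 8 weeks. Mice of the vehicle group (3 libraries) received inVivoPure pH 6.5 Dilution Buffer, and mice of the UMBO group (2 libraries) received pulsed ultrasound with circulating microbubbles and no checkpoint antibody. Sessions took place on days 21 and 24, and the right hemisphere was collected 24 h after the last session. Each library is 1 mouse, every mouse carried the tumor, and mice without a tumor or without treatment were not analysed here. Bulk RNA of a hemisphere mixes tumor, brain and blood-derived cells, so fewer cells of a type and less RNA per cell cannot be told apart.

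C-type lectin receptors are surface proteins with which macrophages, monocytes, dendritic cells, neutrophils and microglia bind sugars, lipids and material from dying cells. The activating receptors signal to the kinase Syk, either through a motif in their own tail, as Dectin-1 (the product of Clec7a) does, or through a partner chain, Fcer1g or Tyrobp. From Syk the signal passes through Card9 to NF-kappa-B and to cytokine and chemokine genes, whereas the inhibitory receptors recruit phosphatases such as Ptpn6. In the brain, Clec7a is widely used as a marker of microglia that have left their resting state, and Clec4e encodes Mincle, a receptor for mycobacterial glycolipid and for a nuclear protein released by dead cells.

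The members lie in a few clusters. Clec4a2 (chr6:123106428-123143999, plus strand), Clec4n (chr6:123229843-123247021, plus strand), Clec4d (chr6:123262111-123275265, plus strand) and Clec4e (chr6:123281789-123289870, minus strand) form the Dcir and Dectin-2 cluster of GRCm38, with 85.8, 15.1 and 6.52 kb between neighbors. Clec12a (chr6:129342691-129365303, plus strand) and Clec7a (chr6:129461591-129472779, minus strand) lie 96.3 kb apart in the Dectin-1 cluster. Clec5a (chr6:40574894-40585821, minus strand) and Clec10a (chr11:70156197-70170834, plus strand) lie elsewhere. GENCODE M21 types Clec7a as a polymorphic pseudogene and the other 7 as protein coding. No exon of a member overlaps an exon of another gene on either strand. Of all stretches of 100 transcribed bases, 2.14% of those of Clec4a2 are also found in Clec4a4 and 2.64% of those of Clec10a in Mgl2, so these counts are slightly uncertain, and none of the other 6 members shares such a stretch with another gene.

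The promoters of members whose values went together across the libraries are printed because they can be compared for the motifs of factors that act in myeloid cells. RefSeq (GRCm38.p6) gave a promoter for 6 members, with none for Clec4n and Clec10a, and the 250 bases before the start were searched on both strands. Capitals mark GAGGAA, or TTCCTC on the other strand, the core of a box bound by PU.1, a factor of the myeloid lineage.
Clec4d, chr6:123261857-123262106, plus strand: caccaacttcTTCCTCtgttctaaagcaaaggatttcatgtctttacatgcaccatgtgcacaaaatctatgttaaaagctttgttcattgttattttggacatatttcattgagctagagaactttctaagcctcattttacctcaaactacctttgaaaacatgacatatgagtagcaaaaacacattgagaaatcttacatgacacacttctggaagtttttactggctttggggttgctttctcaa
Clec4e, chr6:123289872-123290121, minus strand: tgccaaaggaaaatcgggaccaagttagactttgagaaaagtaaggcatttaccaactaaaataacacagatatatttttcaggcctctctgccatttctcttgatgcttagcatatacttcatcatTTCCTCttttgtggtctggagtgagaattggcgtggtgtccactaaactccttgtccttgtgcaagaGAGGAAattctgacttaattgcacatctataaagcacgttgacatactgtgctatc
Clec7a, chr6:129472780-129473029, minus strand: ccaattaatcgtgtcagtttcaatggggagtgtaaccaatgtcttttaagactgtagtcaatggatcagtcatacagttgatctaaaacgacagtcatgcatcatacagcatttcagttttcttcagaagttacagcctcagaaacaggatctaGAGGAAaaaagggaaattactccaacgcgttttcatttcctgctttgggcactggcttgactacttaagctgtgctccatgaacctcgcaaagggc
Clec4a2, chr6:123122440-123122689, plus strand: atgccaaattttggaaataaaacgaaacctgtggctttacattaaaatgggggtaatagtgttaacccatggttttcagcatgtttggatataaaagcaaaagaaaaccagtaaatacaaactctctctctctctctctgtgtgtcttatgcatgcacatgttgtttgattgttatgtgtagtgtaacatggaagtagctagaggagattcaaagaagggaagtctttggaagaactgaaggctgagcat
The box was present in 5 of the 6 promoters, all but that of Clec4a2. Of all 27025 genes with a promoter, 25.85% had it in at least 1 window. It was found 2 times in the promoters of Clec4e, Clec5a and Clec12a and 1 time in those of Clec7a and Clec4d. The nearest match lay 47 to 56 bases before the start in Clec12a, Clec5a and Clec4e, 96 bases before it in Clec7a and 240 bases before it in Clec4d. TTGCNNAA, a form of the site of C/EBP factors, was present in Clec4e and Clec12a and in 10.842% of the 27025 genes. TGANTCA, the AP-1 site, was present in Clec12a alone of the 6 and in 7.819% of the 27025 genes. GGGANTTCC, a form of the NF-kappa-B site, was in none of the 6 and in 1.628% of the 27025 genes. The interferon response element was in none of the 6 and in 3.463% of the 27025 genes. No match of 1 motif overlapped a match of another in these promoters, and a match describes letters in the window, not binding.

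The total count per library was 59736771 to 86164159, and no pair of libraries agreed within sampling noise. UMBO replicate 2 stood apart from the other 4 libraries for the receptors and for most marker lists of immune cells, and vehicle replicate 2 was next to it, so the members' values are given for every library, and their differences also without either of these libraries. Levels are TMM-normalized CPM, that is, counts scaled to a common library size. The labelled tissue was checked with 10 neuron markers, which summed to 8061 to 12043 CPM with vehicle and to 8276 and 3836 CPM with UMBO, and were thus abundant in all libraries. For each gene the groups were compared with edgeR's quasi-likelihood test over 23592 genes.

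All 8 receptors had a higher mean level with UMBO, by log2 fold changes of 0.74 to 4.87 with a median of 1.64, against a median of 0.01 over all genes tested. The difference was carried by UMBO replicate 2, which held the highest level of each of the 8 genes. Vehicle replicate 2 held the second highest level of each, above UMBO replicate 1, so that in no member did both UMBO libraries exceed all vehicle libraries (0 of 8, against 11.5% of all genes tested). None of the 8 passed an adjusted p of 0.05 in edgeR's test, and 0% of all genes did, with 1738 genes at an unadjusted p under 0.05 and 42 genes, none of them a member, called by the DESeq2 Wald test. The adjusted p was 0.497 for 7 members and 0.521 for Clec10a. At an unadjusted p under 0.05, 4 of the 8 were higher (Clec4n, Clec4d, Clec4e and Clec5a), where 5.3% of all genes tested were.

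**Figure D1:**
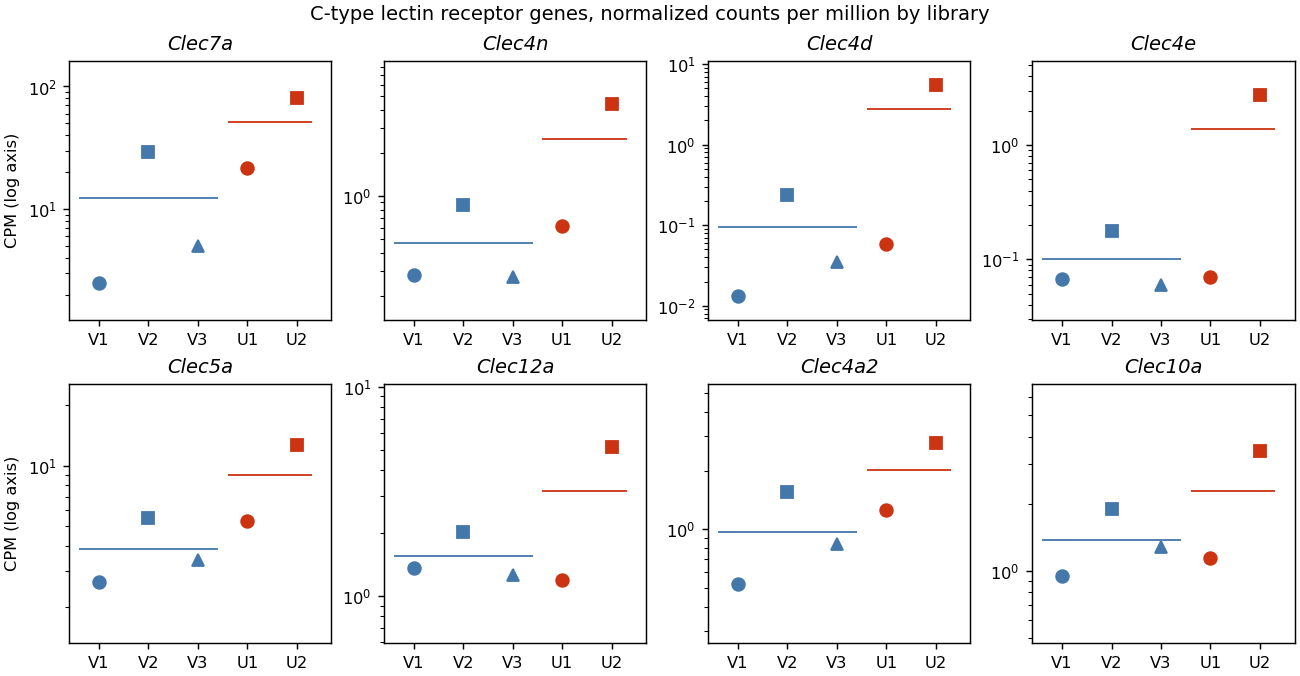
TMM-normalized CPM (log axis, 1 panel per gene) of the 8 receptor genes in vehicle replicates 1 to 3 (V1 to V3, blue) and UMBO replicates 1 and 2 (U1 and U2, red); the shape of a point follows the replicate number and the lines are group means. UMBO replicate 2 is the highest point and vehicle replicate 2 the second highest in all 8 panels.

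Clec7a, the beta-glucan receptor Dectin-1, was the most abundant member. It was at 2.49, 29.3 and 4.98 CPM in vehicle replicates 1 to 3 and at 21.5 and 80.6 CPM in UMBO replicates 1 and 2. The vehicle libraries themselves spanned a range of 11.8-fold, and UMBO replicate 1 lay between vehicle replicates 3 and 2. The mean was 12.3 ± 14.8 CPM (SD, n = 3) with vehicle and 51.1 ± 41.8 CPM (SD, n = 2) with UMBO, a log2 fold change of 2.06 (standard error 1.08, unadjusted p = 0.106, edgeR). Clec7a was the member with the largest value in UMBO replicate 1 relative to the vehicle mean (1.76-fold), but that library was still at 0.735 times the level of vehicle replicate 2. Without UMBO replicate 2 its log2 fold change was 0.81, the highest of the 8.

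Clec4d and Clec4e encode MCL and Mincle, partner receptors that couple to Fcer1g, and they showed the largest ratios of all members. Clec4d had 1, 16 and 3 reads with vehicle, against 5 reads in UMBO replicate 1 and 357 in UMBO replicate 2. Its levels were 0.0134, 0.237 and 0.0354 CPM with vehicle and 0.0585 and 5.45 CPM with UMBO. It was thus close to the counting floor in 4 libraries and well detected in 1. UMBO replicate 2 was 57.1-fold above the vehicle mean and 23.0-fold above the highest vehicle library, with exact Poisson intervals (95%, counting error only) of 4.90 to 6.04 CPM against 0.136 to 0.385 CPM. UMBO replicate 1 was below the vehicle mean (0.613-fold), and its interval of 0.0190 to 0.136 CPM covered the values of vehicle replicate 3. The fitted log2 fold change of Clec4d was 4.87 (standard error 1.76, unadjusted p = 0.0324, edgeR).

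Clec4e had few reads in the same 4 libraries. The counts were 5, 12 and 5 reads with vehicle and 6 and 178 reads with UMBO, which gave 0.0668, 0.178 and 0.0590 CPM and 0.0702 and 2.72 CPM. A difference of UMBO replicate 1 from vehicle replicates 1 and 3 was not detectable at this depth, with a counting interval of 0.0258 to 0.153 CPM in that library. UMBO replicate 2 was 26.8-fold above the vehicle mean and 15.3-fold above vehicle replicate 2 (log2 fold change 3.78, standard error 1.34, unadjusted p = 0.0305, edgeR). When UMBO replicate 2 was left out, the log2 fold changes of Clec4d and Clec4e were -0.64 and -0.49. Both genes passed the filter on low counts in the full comparison, as did all 8 members, but not when vehicle replicate 2 was left out.

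Clec4n, the third Fcer1g-coupled member and the gene for the mannan receptor Dectin-2, was at 0.281, 0.860 and 0.272 CPM with vehicle and at 0.620 and 4.39 CPM with UMBO. Vehicle replicates 1 and 3 were nearly equal, and UMBO replicate 1 lay between them and vehicle replicate 2. The mean was 0.471 ± 0.337 CPM (SD, n = 3) with vehicle and 2.51 ± 2.67 CPM (SD, n = 2) with UMBO, a log2 fold change of 2.41 (standard error 0.913, unadjusted p = 0.0384, edgeR) that was 0.41 without UMBO replicate 2.

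Clec5a, which signals through Tyrobp, had the smallest spread relative to its mean within the vehicle group among the activating members. It was at 2.65, 5.52 and 3.42 CPM with vehicle and 5.30 and 12.7 CPM with UMBO. UMBO replicate 1 was almost level with vehicle replicate 2 (0.960-fold) and above the other vehicle libraries. The log2 fold change was 1.22 (standard error 0.481, unadjusted p = 0.0446, edgeR), and 0.46 without UMBO replicate 2.

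With all 5 libraries, the inhibitory receptors had log2 fold changes below those of the 5 activating members. Without UMBO replicate 2 this order did not hold, with the activating Clec4d and Clec4e (-0.64 and -0.49) below both inhibitory receptors. Clec12a, which carries an inhibitory tail motif and binds uric acid crystals, was at 1.36, 2.03 and 1.26 CPM with vehicle and 1.19 and 5.14 CPM with UMBO. Here UMBO replicate 1 was the lowest of the 5 libraries and UMBO replicate 2 the highest, and the log2 fold change of 1.03 (standard error 0.622, unadjusted p = 0.150, edgeR) turned to -0.38 without UMBO replicate 2. Clec4a2, which encodes the inhibitory receptor DCIR, was at 0.521, 1.56 and 0.838 CPM with vehicle and 1.25 and 2.78 CPM with UMBO. UMBO replicate 1 lay inside the vehicle range, and the log2 fold change of 1.05 (standard error 0.577, unadjusted p = 0.119, edgeR) was 0.37 without UMBO replicate 2.

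Clec10a, a galactose-binding endocytic receptor of macrophages and dendritic cells, showed the smallest difference. It was at 0.949, 1.88 and 1.28 CPM with vehicle and 1.15 and 3.43 CPM with UMBO. UMBO replicate 1 fell between vehicle replicates 1 and 3, and the log2 fold change was 0.74 (standard error 0.553, unadjusted p = 0.230, edgeR), or -0.25 without UMBO replicate 2. With all libraries the log2 fold changes were 1.22 to 4.87 in the 5 activating members and 1.03 and 1.05 in the 2 inhibitory members. The difference between roles was not tested, and the order did not hold without UMBO replicate 2.

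The contrast between the mice of the UMBO group was visible in every member. UMBO replicate 2 was 2.51-fold (Clec10a) to 57.1-fold (Clec4d) above the vehicle mean, whereas UMBO replicate 1 was 0.613-fold (Clec4d) to 1.76-fold (Clec7a) of it. The median of the 8 genes, as log2 difference from the vehicle mean, was -0.48, 0.80 and -0.36 with vehicle, against 0.23 and 2.56 with UMBO. Without UMBO replicate 2, 4 members were higher and 4 lower with UMBO, the median log2 fold change was 0.06, and no member had an unadjusted p under 0.05. Without UMBO replicate 1 the median was 2.20 and 5 members were called at an adjusted p under 0.05 (Clec4n, Clec4d, Clec4e, Clec5a and Clec12a), where 10.1% of all genes tested were called higher. In that fit the single remaining UMBO library is assumed to vary as the vehicle libraries do. All 8 members then had an unadjusted p under 0.05, where 21.4% of all genes tested were higher at that threshold, against 1.15% without UMBO replicate 2.

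Leaving out vehicle replicate 2 widened the differences of the 6 members that still passed the filter. For Clec7a the log2 fold change was then 3.81 (standard error 0.751, unadjusted p = 0.00268, edgeR), for Clec4n 3.22, for Clec5a 1.60, for Clec4a2 1.59, for Clec12a 1.31 and for Clec10a 1.07. Of these 6, 4 had an unadjusted p under 0.05 (Clec7a, Clec4n, Clec5a and Clec4a2), where 9.36% of all genes tested were higher, and none passed the adjusted threshold (smallest adjusted p = 0.420, edgeR). Without vehicle replicate 1 or 3, 0 members reached an unadjusted p under 0.05 by edgeR, where 0.838% and 0.945% of all genes tested were higher.

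**Figure D2:**
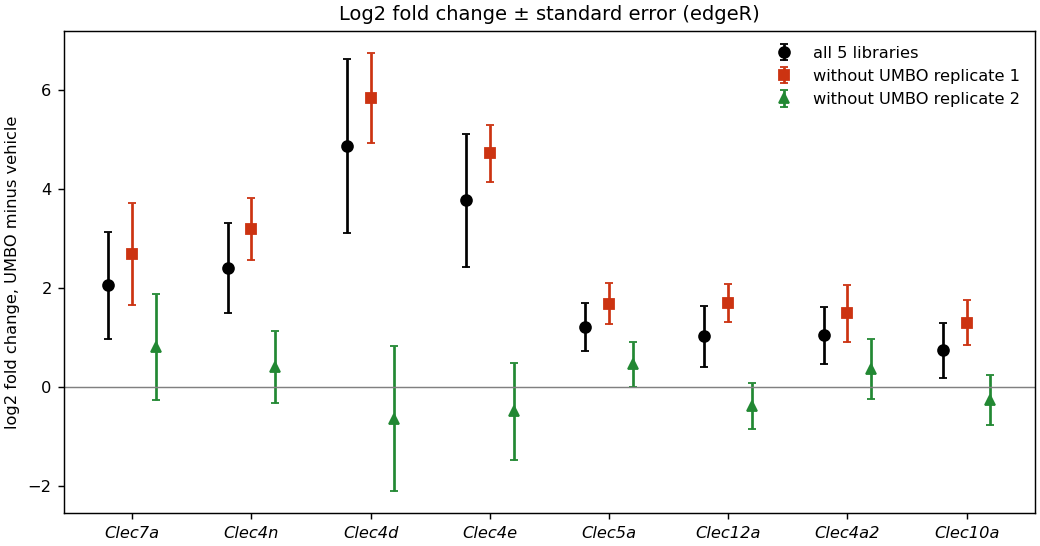
Log2 fold change (UMBO minus vehicle, edgeR) of each receptor gene with its standard error as bar, for all 5 libraries (black circles), without UMBO replicate 1 (red squares) and without UMBO replicate 2 (green triangles). Without UMBO replicate 2, Clec4d, Clec4e, Clec12a and Clec10a lie below 0, at -0.64, -0.49, -0.38 and -0.25.

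Levels can be compared between genes when divided by the exonic length. On this scale (mean CPM per kb of the vehicle libraries) the order was Clec7a (4.64), Clec5a (1.01), Clec10a (0.472), Clec4a2 (0.332), Clec4n (0.332), Clec12a (0.281), Clec4d (0.0596) and Clec4e (0.0204). Clec7a and Clec5a overlapped over the vehicle libraries, as did each pair of neighbors from Clec10a to Clec12a, and Clec4d overlapped Clec4e. Gaps without overlap separated Clec5a from Clec10a and Clec12a from Clec4d. In UMBO replicate 2 the order differed, with Clec7a at 30.6 CPM per kb followed by Clec4d (3.41), Clec5a (3.30) and Clec4n (3.09), while Clec10a (1.18), Clec4a2 (0.949), Clec12a (0.930) and Clec4e (0.547) were lower. Clec4d thus stood seventh of 8 in the vehicle group and second in that library.

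The levels were next set against the amount of myeloid RNA. The sum of 10 pan-myeloid genes (among them Ptprc, Itgam, Csf1r and Cd68) was 320, 804 and 458 CPM in the vehicle libraries and 764 and 1601 CPM in the UMBO libraries. UMBO replicate 2 was thus highest and vehicle replicate 2 next in the sum, of which Ctss made up to 47.4% in a library. The single genes did not all share this order. In 4 of the 10 (Itgam, Csf1r, Cd68 and Laptm5) both UMBO libraries exceeded every vehicle library, where 11.5% of all genes tested did. Per 1000 CPM of this sum, Clec4d was at 0.0418, 0.295 and 0.0773 with vehicle and at 0.0766 and 3.40 with UMBO, so that UMBO replicate 2 remained 11.5-fold above the highest vehicle library. Clec4e on the same scale was at 0.209, 0.221 and 0.129 with vehicle and 0.0919 and 1.70 with UMBO, with UMBO replicate 2 at 7.66-fold of the highest vehicle library. Clec4n was at 0.878, 1.07 and 0.593 against 0.812 and 2.74. In these 3 Fcer1g-coupled receptors UMBO replicate 1 lay inside or below the vehicle range.

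Clec7a per 1000 pan-myeloid CPM was at 7.78, 36.4 and 10.9 with vehicle and 28.2 and 50.3 with UMBO, which kept its wide range within the vehicle group. The remaining members showed little of the ratio seen in their plain levels. Clec5a was at 8.28, 6.86 and 7.47 against 6.94 and 7.92, and Clec4a2 at 1.63, 1.94 and 1.83 against 1.64 and 1.73, so both UMBO libraries lay inside the vehicle range for these genes. Clec12a was at 4.26, 2.53 and 2.76 against 1.56 and 3.21. Clec10a was at 2.97, 2.34 and 2.78 against 1.501 and 2.14, with both UMBO libraries below every vehicle library.

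With 3 libraries against 2 there are 10 groupings, and the smallest p an exact permutation test can give is 0.1, so no member could reach 0.05 on the relative scale. The log2 difference of the relative level was 1.36 for Clec7a, 0.79 for Clec4n, 1.80 for Clec4d, 0.96 for Clec4e, -0.03 for Clec5a, -0.47 for Clec12a, -0.12 for Clec4a2 and -0.59 for Clec10a. The 2-sided exact permutation p was 0.1 for Clec10a and 0.3 to 0.9 for the other 7. The relative values depended on the reference, and Ctss made up 39.0% and Lyz2 18.4% of the sum in UMBO replicate 2. With Csf1r alone as reference, which was at 99.0, 141 and 127 CPM with vehicle and 190 and 173 CPM with UMBO, the median difference over the 8 genes was 0.97 in place of 0.38, and that of Clec10a was -0.0033. With the mean of the log2 values of the 10 genes, which gives each the same weight, the median difference was 0.22.

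**Figure D3:**
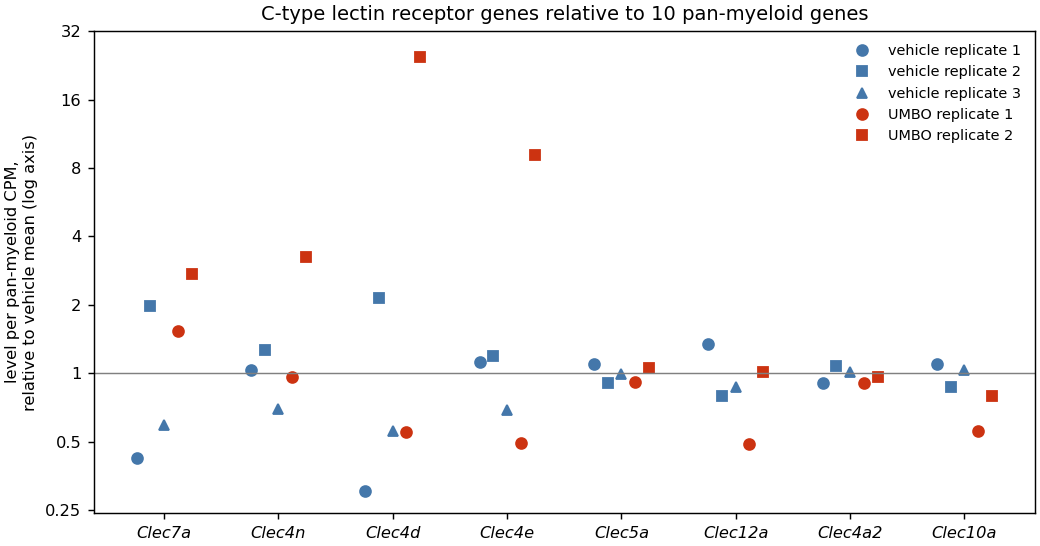
Level of each receptor gene divided by the summed CPM of 10 pan-myeloid genes, relative to the mean of the vehicle libraries (log axis), with 1 point per library. Clec4d (24.6) and Clec4e (9.10) in UMBO replicate 2 lie far above 1, whereas Clec5a and Clec4a2 lie close to 1 in all 5 libraries.

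The partner chains and the kinases that carry the signal were then examined. The 27 signalling adaptors, kinases and phosphatases were all tested. At an unadjusted p under 0.05, 9 were higher, where 5.3% of all genes tested were, and 0 were lower. Fcer1g, Tyrobp, Lyn, Card9 and Inpp5d were among the 9. In edgeR's test 0 passed the adjusted threshold, and the median log2 fold change was 0.77, or 0.27 without UMBO replicate 2. Fcer1g, the partner of Clec4n, Clec4d and Clec4e, was at 8.30, 28.8 and 11.7 CPM with vehicle and 22.0 and 98.4 CPM with UMBO (log2 fold change 1.89, standard error 0.748, unadjusted p = 0.0452, edgeR), and vehicle replicate 2 was above UMBO replicate 1 as in the receptors. Without UMBO replicate 2 the log2 fold change of Fcer1g was 0.43. Tyrobp, the partner of Clec5a, was at 10.6, 34.3 and 14.4 CPM with vehicle and 35.6 and 102 CPM with UMBO. Here UMBO replicate 1 just exceeded vehicle replicate 2, and the log2 fold change of 1.80 (standard error 0.626) was 0.85 without UMBO replicate 2.

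Syk, the kinase on which the activating receptors converge, was at 5.90, 9.67 and 6.80 CPM with vehicle and 9.22 and 17.5 CPM with UMBO (log2 fold change 0.84, standard error 0.361, unadjusted p = 0.0591, edgeR). Card9, the adaptor downstream of it, was at 1.67, 4.32 and 2.87 CPM against 4.21 and 10.9 CPM (log2 fold change 1.35, standard error 0.545, unadjusted p = 0.0479, edgeR). In both genes vehicle replicate 2 was slightly above UMBO replicate 1, and with UMBO replicate 2 left out Syk had a log2 fold change of 0.31 and Card9 one of 0.51. Lyn, a Src-family kinase that phosphorylates activating and inhibitory motifs, was at 10.6, 20.4 and 14.0 CPM with vehicle and 25.4 and 42.6 CPM with UMBO, so its groups did not overlap (log2 fold change 1.18, standard error 0.349, unadjusted p = 0.0146, edgeR). Inpp5d, the lipid phosphatase SHIP1, did not overlap between the groups either, at 19.6, 28.0 and 21.8 CPM against 31.1 and 47.5 CPM. Lyn and Inpp5d had log2 fold changes of 0.77 and 0.43 without UMBO replicate 2. Both UMBO libraries exceeded every vehicle library in 9 of the 27 genes, where 11.5% of all genes tested did.

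Among genes that the pathway can induce, 14 of 16 were tested, with 0 past the adjusted threshold in edgeR's test. At an unadjusted p under 0.05, 4 were higher (Ccl3, Ccl4, Cxcl1 and Il6), where 5.3% of all genes tested were, and 1 was lower (Egr3). The median log2 fold change was 1.48, and it was 0.27 without UMBO replicate 2 and 2.65 without vehicle replicate 2. Ccl3, a chemokine for monocytes, was at 0.348, 1.14 and 0.378 CPM with vehicle and at 2.12 and 7.64 CPM with UMBO. It was above every vehicle library in both UMBO mice, and its log2 fold change of 2.97 (standard error 0.758, unadjusted p = 0.00782, edgeR) was 1.77 without UMBO replicate 2. Cxcl1, a neutrophil chemokine, was at 0.0535, 0.237 and 0.130 CPM with vehicle and 0.351 and 2.99 CPM with UMBO, again without overlap but from few reads (log2 fold change 3.57, standard error 0.995). Il6 was at 0.0267, 0.237 and 0.130 CPM against 0.222 and 2.24 CPM, with overlap between the groups (log2 fold change 3.22, standard error 1.11). Cxcl1 and Il6 had log2 fold changes of 1.33 and 0.77 without UMBO replicate 2. Ccl3, Cxcl1 and Il6 were named for the lowest p in this list. Both UMBO libraries exceeded every vehicle library in 2 of the 14 tested genes (Ccl3 and Cxcl1), where 11.5% of all genes tested did.

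Other lectin genes were compared with the members. Of 11 further genes of the same clusters, 7 had enough counts to be tested, with a median log2 fold change of 0.99 (0.19 without UMBO replicate 2). At an unadjusted p under 0.05, 0 were lower and 1 was higher, where 5.3% of all genes tested were. That gene was Clec4a1, of the Dcir family, at 0.361, 1.01 and 0.626 CPM with vehicle and 1.02 and 3.43 CPM with UMBO (log2 fold change 1.74, standard error 0.650, unadjusted p = 0.0367, edgeR). Clec4a3 (1.18, standard error 0.531) and Clec2d (1.46, standard error 0.679) had log2 fold changes in the same direction that did not pass. All 3 had their highest value in UMBO replicate 2, and their log2 fold changes without it were 0.62, 0.45 and 0.23. Both UMBO libraries exceeded every vehicle library in 1 of the 7 tested genes, where 11.5% of all genes tested did. This was Clec4a1, in which UMBO replicate 1 was barely above vehicle replicate 2.

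Of 18 lectin receptors outside these clusters, 14 were tested, with 0 past the adjusted threshold in edgeR's test. At an unadjusted p under 0.05, 3 were higher, where 5.3% of all genes tested were, and 0 were lower. The median log2 fold change was 0.63, or 0.01 without UMBO replicate 2. Clec14a, a lectin-domain protein of endothelial cells, was at 4.21, 4.69 and 5.35 CPM with vehicle and at 8.76 and 7.64 CPM with UMBO. Its UMBO libraries were close to each other and both above all vehicle libraries, and the log2 fold change was 0.79 with all libraries (standard error 0.239, unadjusted p = 0.0166, edgeR) and 0.88 without UMBO replicate 2. Cd93, found on endothelial and myeloid cells, was at 6.52, 8.65 and 10.6 CPM with vehicle and 16.4 and 23.5 CPM with UMBO (log2 fold change 1.22, standard error 0.284, unadjusted p = 0.00513, edgeR), and at 0.94 without UMBO replicate 2. Asgr1, the asialoglycoprotein receptor subunit, was at 0.856, 1.69 and 1.20 CPM against 1.86 and 4.36 CPM, with a log2 fold change of 1.31 that was 0.57 without UMBO replicate 2. Both UMBO libraries exceeded every vehicle library in these 3 of the 14 genes, where 11.5% of all genes tested did, and in none of the 8 members. The 3 are those of this list with the smallest p, and the difference from the members was not tested.

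Markers of cells that can carry these receptors differed between the libraries too, and their part in the result was not tested. In each list, the number of genes higher at an unadjusted p under 0.05 (edgeR) is to be read beside 5.3% of all genes tested. The monocyte list (10 genes, Ccr2 and Ly6c2 among them) had 1 gene higher (Chil3) and summed to 119 to 166 CPM with vehicle and to 174 and 284 CPM with UMBO. Its median log2 fold change was 2.14, or -0.02 without UMBO replicate 2. The neutrophil list had 5 of 10 genes tested, with 1 of them (S100a8) higher, and a sum of 0.655 to 2.22 CPM with vehicle and 1.40 and 6.93 CPM with UMBO. Ly6g, a neutrophil marker, had too few reads to be tested. It was at 0, 0.0445 and 0 CPM with vehicle and 0.0117 and 0.0153 CPM with UMBO. These values are at the counting floor, so they do not rank the libraries. Every other gene of the neutrophil list had its highest level in UMBO replicate 2. The border macrophage list had 3 of 10 genes higher (Cbr2, Folr2 and Stab1) and a sum of 32.03 to 45.4 CPM against 56.9 and 94.4 CPM, and the dendritic cell list had 0 of 10 higher and a sum of 227 to 292 CPM against 248 and 291 CPM. In the lymphocyte list 1 of 10 (Ncr1) was higher and the sum was 15.9 to 25.9 CPM against 10.2 and 32.3 CPM. Single genes made up much of some sums, with Fn1 at up to 64.9% of the monocyte sum, Fscn1 at up to 82.7% of the dendritic cell sum, Cd4 at up to 81.4% of the lymphocyte sum and Sparc at up to 61.6% of the microglia sum. By the median gene, as log2 difference from the vehicle mean, the dendritic cell list was at -0.34, 0.16 and 0.06 with vehicle and at -0.10 and 0.81 with UMBO. Without UMBO replicate 2 the median log2 fold change went from 1.06 to 0.31 in the neutrophil list, from 0.96 to 0.38 in the border macrophage list, from 0.52 to -0.18 in the dendritic cell list and from 0.87 to -0.56 in the lymphocyte list.

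Microglia markers followed another order of libraries than the receptors, though they were not the only list to do so. The list of 10 genes summed to 609 to 974 CPM with vehicle and to 1303 and 1426 CPM with UMBO. Its median log2 fold change was 0.61, and 0.56 without UMBO replicate 2. In 8 of its genes, Tmem119 among them, both UMBO libraries exceeded all vehicle libraries, where 11.5% of all genes tested did. The same held for 7 of 10 proliferation, 5 of 10 border macrophage and 4 of 10 pan-myeloid genes. It held for 2 of 10 monocyte and 2 of 10 dendritic cell genes. In the lymphocyte list it held for 1 of 10, and in the neutrophil list for 0 of the 5 tested. P2ry12 was at 37.6, 31.9 and 42.8 CPM with vehicle and 51.7 and 20.8 CPM with UMBO. Sall1 was at 31.3, 28.3 and 33.9 CPM against 36.7 and 22.9 CPM. Both were thus highest in UMBO replicate 1 and lowest in UMBO replicate 2. All 10 pan-myeloid genes had a positive log2 fold change (median 1.40, or 0.62 without UMBO replicate 2). Of these, 6 had an unadjusted p under 0.05, where 5.3% of all genes tested were higher. All 10 proliferation genes were higher at an unadjusted p under 0.05, with sums of 34.3 to 103 CPM against 111 and 442 CPM and a median log2 fold change of 2.14, or 0.93 without UMBO replicate 2, and their part in the receptors' values was not tested either. Neuron markers had a median log2 fold change of -0.41, or -0.24 without UMBO replicate 2, with 0 of 10 genes past the unadjusted threshold.

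**Figure D4:**
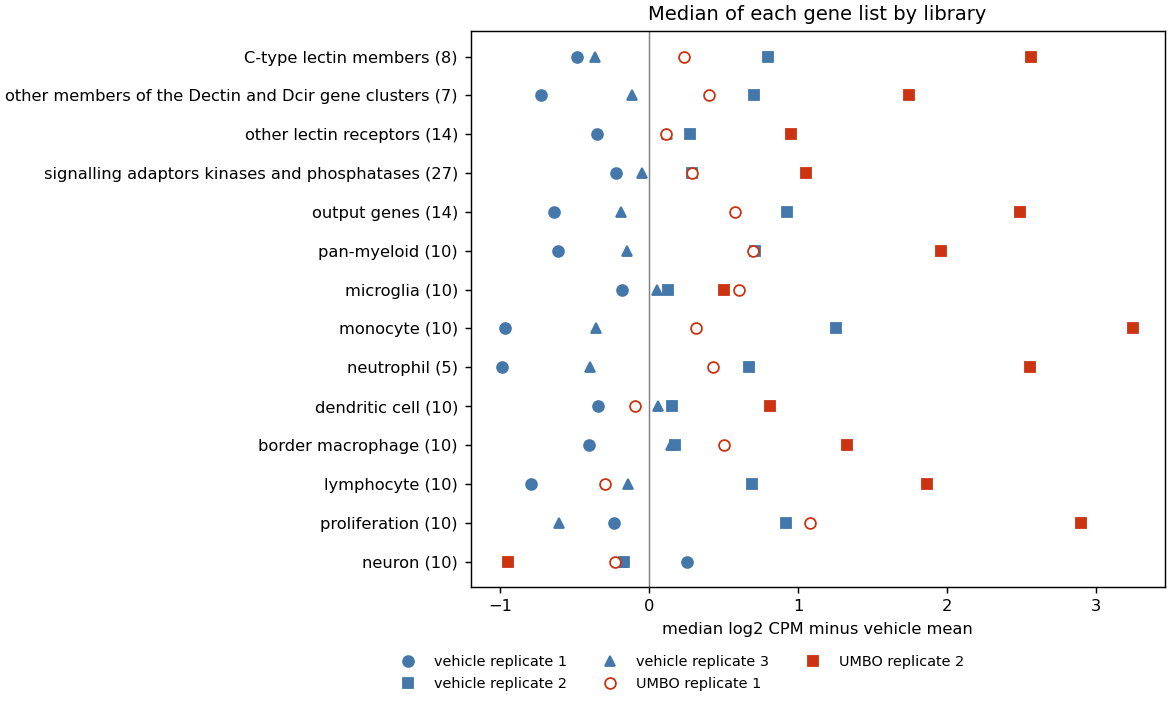
Median log2 CPM of each gene list (number of genes tested in brackets) in each library, minus the mean of the vehicle libraries. For the 8 receptors UMBO replicate 2 lies at 2.56 and UMBO replicate 1 at 0.23, below vehicle replicate 2 at 0.80. In the microglia, border macrophage and proliferation lists both UMBO libraries lie above all vehicle libraries.

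Among the genes outside the 8 whose levels followed the median receptor most closely over the 5 libraries were Ifitm2, Slc1a5, Psme2 and Nes, with root mean square differences of 0.051, 0.054, 0.089 and 0.091 on the log2 scale after centering. Ifitm2, an interferon-induced membrane protein gene, was at 2.67, 7.22 and 3.28 CPM with vehicle and 4.90 and 24.9 CPM with UMBO. Slc1a5, a glutamine transporter gene, was at 4.60, 11.997 and 5.10 CPM against 8.40 and 40.6 CPM. Nes, which encodes the intermediate filament nestin of neural progenitor and glioma cells, was at 14.6, 37.2 and 17.4 CPM against 29.6 and 132 CPM. In these genes, as in the receptors, UMBO replicate 2 was highest and vehicle replicate 2 next, which follows from how they were chosen. Psme2 has a near-identical copy, so its counts are uncertain.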

How the data were processed

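RNA of the right hemisphere was sequenced from 3 vehicle-treated and 2 UMBO-treated mice, while the study's methods count 1 mouse more, which was not analysed here, so the UMBO group rests on 2 mice. Per the submitters' processing notes, the authors used STAR 2.7.2a, the build GRCm38 (mm10) and DESeq2. The authors deposited raw counts of reads per gene, without normalization. The annotation release and the use of strand in counting are not given in the sources used here.

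Gene symbols and positions came from GENCODE M21 (55480 of 55573 genes matched, with at most 0.0017% of a library's counts unmatched). Counts were TMM-normalized, filtered with filterByExpr and tested with edgeR 4.0.16 in R 4.3.3. Adjustment followed Benjamini and Hochberg over all 23592 genes tested, with a threshold of 0.05. Log2 CPM used a prior count of 2. At a total count of 59736771 to 86164159 per library, counting error was largest for Clec4d and Clec4e. Clec4n also had few reads, with 21, 58 and 23 in the vehicle libraries and 53 in UMBO replicate 1. For the other members the number of mice sets the precision. The members, gene lists and tests were chosen with earlier results of these data known.

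Genes outside the 8 members were named by rule. They are Fcer1g, Tyrobp, Syk and Card9, the 3 genes of lowest p in each pathway list and the 5 genes most like the median member, whereas Ccl4, Egr3 and the markers were named after their values were seen. Some genes that this rule names are not reported here. The test was checked on simulated counts in which no library stood apart. Their dispersion, a measure of spread between libraries, was below the common value of 0.118 fitted here. The check thus does not cover a library such as UMBO replicate 2. Alternatives were other scalings and filters, DESeq2 1.42.0, a replicate block, other myeloid references and each library left out in turn. Promoters are from RefSeq, and motifs were searched in the 250 bases before the start in 27025 genes, of which 6 were members.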

Additional observations from a re-analysis of the deposited data

How the results depend on the processing

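No result past the adjusted threshold was found with all libraries in edgeR's test, and at an unadjusted p under 0.05 there were 1738 of 23592 genes. The DESeq2 Wald test called 42 genes (29 higher, 13 lower) and none of the 8 receptors. The replicate number as a block in edgeR gave 2337 genes, 1428 of them higher, and called Clec7a, Clec4n, Clec4d, Clec4e and Clec5a (log2 fold changes 2.25, 1.83, 4.29, 2.89 and 1.10), where 6.05% of all genes tested were called higher. Only 2 replicate numbers are shared by the groups, and no label says that a number marks a shared batch. The deviations of same-numbered libraries from their group means correlated at 0.453 and 0.760. With 2 UMBO libraries their deviations are equal and opposite, so differently numbered libraries gave -0.453 and -0.760. The 2 values are thus not separate evidence, and the numbers do not establish pairs. Leaving out each library in turn gave 0 to 4543 genes past the adjusted threshold, 0 to 8 receptors at an unadjusted p under 0.05, 0 to 8 receptors with UMBO above vehicle (6 without vehicle replicate 2, where 30.1% of genes were, and 8 without UMBO replicate 1, where 42.2% were) and receptor medians of 0.056 to 2.20. The stricter filter (at least 1 CPM in at least 2 libraries) kept 5 receptors, with 1 at an unadjusted p under 0.05 where 5.04% of genes were higher, and left no neutrophil gene to summarize. The log2 fold changes of 4 receptors turned negative without UMBO replicate 2, and over the libraries left out they ranged from -0.64 to 5.85 for Clec4d, -0.49 to 4.73 for Clec4e, -0.38 to 1.70 for Clec12a and -0.25 to 1.30 for Clec10a. The median of the receptors relative to pan-myeloid genes was 0.97 with Csf1r alone, 0.22 with the mean of log2 values and -0.41 to 0.86 over the libraries left out. Scaling by library size alone put the median over all genes at 0.13 and the median over the receptors at 1.75, and all 8 stayed above 0. The causes of these shifts were not tested. Depth limits Clec4d and Clec4e, which had 1 to 16 reads in 4 libraries, and to a lesser degree Clec4n, which had 21 to 58 reads in the same libraries.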
